A study of Homo sapiens with 4 samples.

Results

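The nuclear genes for the subunits of the mitochondrial respiratory chain and the ATP synthase were followed through 4 RNA sequencing libraries of HCT116 cells, an established human colon cancer line. Genes were taken by name: symbols beginning with NDUF followed by A, B, C, S or V and a number, UQCR, COX4 to COX8, the succinate dehydrogenase genes SDHA to SDHD, and ATP5. Such a name was borne by 93 of 47251 genes, of which 3 were pseudogenes and were left out, so that 90 remained. They comprised 36 genes of complex I, 4 of complex II, 9 of complex III, 19 of complex IV, 16 of complex V and 6 names that encode no subunit (2 readthrough and 2 antisense names, ATP5S and ATP5SL). NDUFA4 and its paralog NDUFA4L2 were placed with complex IV, where the NDUFA4 protein resides. The pattern misses CYC1, CYCS and NDUFAB1, which are given apart.

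Cells in the plasmid experiment were transfected with 2 µg of a plasmid that expresses TTC22V1 from a pCMV vector, or with as much control vector. In the siRNA experiment they received 3 siRNAs against TTC22 at 100 nM in total, or scramble siRNA at 100 nM. All RNA was harvested 48 hours after transfection, and each of the 4 groups was 1 library, so differences are given without replicate error and without tests. The experiments were deposited as separate tables, and any level set across them includes differences in how the tables were made. TTC22 was at 24215 FPKM with TTC22V1 and 4.46 FPKM with vector. With the siRNAs it was at 6.54 FPKM and with scramble at 10.7 FPKM, a log2 fold of −0.63 that is less than 2-fold. The siRNA value also lay above that of vector, in the other experiment. Whether TTC22 fell beyond the spread between cultures is therefore unknown, and knockdown here names only the siRNA treatment. The unit is taken to be FPKM, fragments scaled to transcript length and library size, and the read depth behind the values is unknown. The summed FPKM lay between 181102 and 205734 per library. Of the epithelial markers EPCAM, KRT8, KRT18 and CDH1, all 4 were present at 8.68 FPKM or more in every library. The intestinal markers VIL1, CDH17 and LGALS4 were at 0.0471 FPKM or less. The intestinal marker CDX2, which has up to 3 exons, was present at a low level, at 1.63 FPKM with TTC22V1 and 4.29 FPKM with vector (lower, log2 fold −1.01) and at 1.28 FPKM in knockdown cells and 2.80 FPKM in scramble cells. In bulk RNA, fewer cells expressing a gene and less of its RNA per cell cannot be told apart.

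The respiratory chain sits in the inner mitochondrial membrane. Complex I oxidises NADH and complex II oxidises succinate. Their electrons pass through ubiquinone, complex III and cytochrome c to complex IV, which reduces oxygen, while complexes I, III and IV pump protons that drive ATP synthesis by complex V. Most subunits are encoded in the nucleus, the rest in mitochondrial DNA, and complexes I, III and IV can join into supercomplexes.

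Together the 90 genes summed to 3087 FPKM with TTC22V1 and 3577 FPKM with vector, and to 2487 FPKM in knockdown cells and 2320 FPKM in scramble cells. Without TTC22 this was 1.88% of the summed FPKM with TTC22V1 and 1.85% with vector, and 1.21% after knockdown and 1.28% with scramble. Their share was thus close within each experiment and smaller in the siRNA experiment. Complex II was the smallest sum, at 102 and 118 FPKM in the TTC22V1 and vector libraries and at 88.9 and 80.8 FPKM in the knockdown and scramble libraries. In the TTC22V1 and vector libraries complex IV summed to 831 and 810 FPKM and complex V to 771 and 893 FPKM. In the knockdown and scramble libraries complex IV summed to 750 and 651 FPKM and complex V to 540 and 515 FPKM. The complex IV sums turn on COX8A, a gene with 2 exons: without it they were 682 and 807 FPKM with TTC22V1 and vector, and 561 and 554 FPKM with knockdown and scramble.

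For each treated library the fold was set against the control of its own experiment as log2((FPKM + 1)/(FPKM + 1)), which understates the change of low genes. A gene counted as measured when the mean of the pair reached 1 FPKM, and as higher or lower when its log2 fold reached 1 or −1, which is 2-fold. In each comparison 78 of the 90 genes were measured. With TTC22V1, 2 of 78 were higher, against 2.08% of all 10191 measured genes, and 4 were lower, against 4.1% of all. After knockdown 4 of 78 were higher, against 2.57% of all 9744 measured genes, and 1 was lower, against 2.19%. The 4 include both NDUFC2 and the readthrough name NDUFC2-KCTD14, which overlaps it. Without names that encode no subunit 3 were higher after knockdown. At 1.5-fold, 3 were higher and 9 lower with TTC22V1 (background 3.74% and 10.5%), and 8 were higher and 1 lower after knockdown (background 5.78% and 5.49%). The respiratory genes past the 2-fold rule were thus single genes, in shares of 2.56% and 5.13% for the plasmid and 5.13% and 1.28% for the siRNA comparison (higher and lower), and the complexes as wholes lay near all other genes.

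The median log2 fold of the 78 genes was −0.25 with TTC22V1, where the median of all measured genes was −0.21, so the group lay −0.045 from it. After knockdown the group median was 0.07 against −0.02 for all genes, a distance of 0.09. With TTC22V1, 34 of 78 lay above the median of all genes and 44 below. After knockdown 51 lay above and 27 below. Their interquartile range was 0.34 log2 units with TTC22V1 and 0.32 after knockdown, against 0.40 and 0.35 for all genes whose mean reached 5 FPKM. By complex, the medians with TTC22V1 were −0.26 (I), −0.20 (II), −0.22 (III), −0.16 (IV) and −0.26 (V). After knockdown they were 0.05, 0.03, 0.06, 0.09 and 0.05 in the same order. Relative to the median of all genes, the complexes lay between −0.05 and 0.04 with TTC22V1 and between 0.05 and 0.12 after knockdown. Over genes with 4 or more exons alone, the medians with TTC22V1 were −0.30 (I), −0.20 (II), −0.16 (III), −0.16 (IV) and −0.26 (V), and after knockdown 0.03, 0.03, −0.07, 0.05 and 0.02. The sign of complex III after knockdown thus turned without its genes with few exons, to −0.049 relative to all genes.

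**Figure D1:**
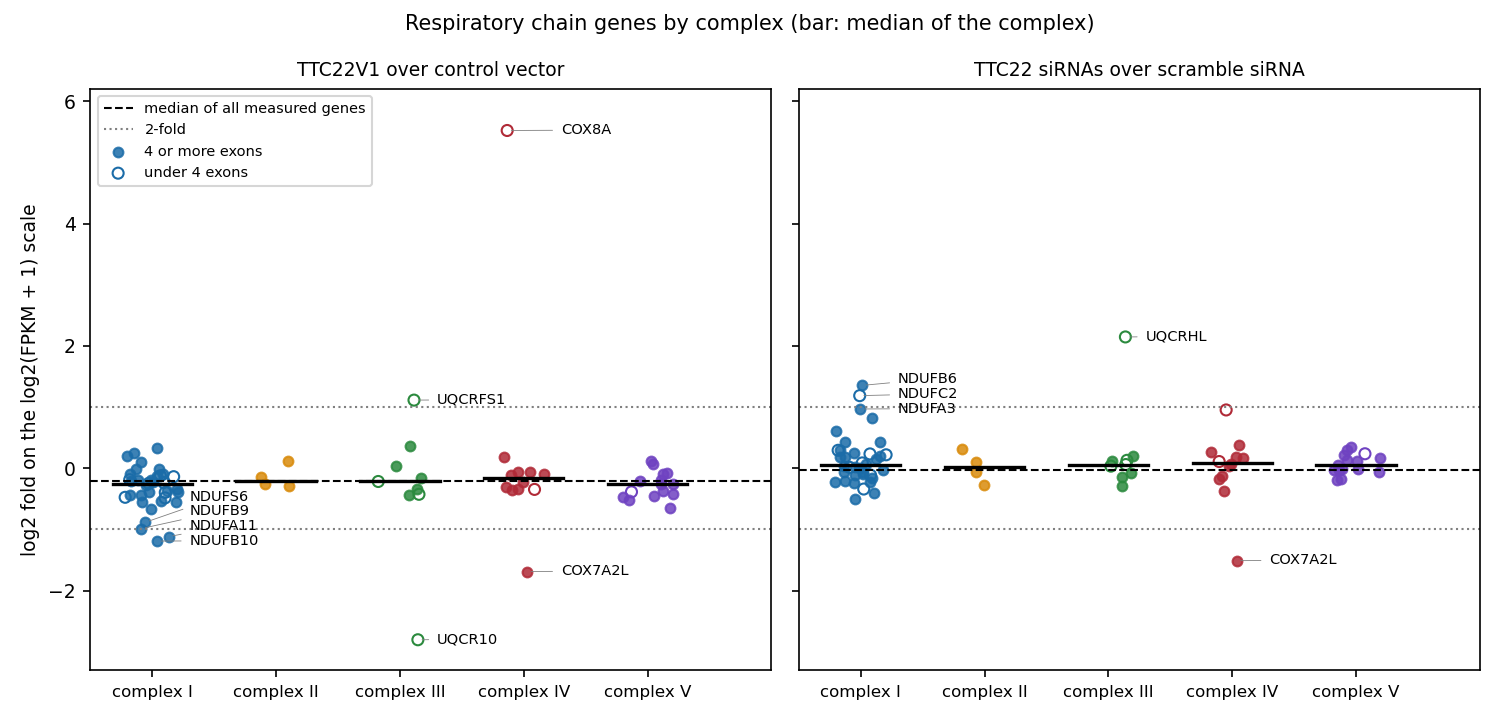
Log2 fold of each measured respiratory gene, on the log2(FPKM + 1) scale, for TTC22V1 over control vector (left panel) and TTC22 siRNAs over scramble siRNA (right panel), by complex. Each point is 1 gene from 1 library per group, open points have under 4 exons, bars are complex medians and the dashed line is the median of all measured genes; most points crowd around it, and COX7A2L lies below −1.5 in both panels.

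Genes with few exons behaved differently from the others in these tables as a whole. Among all genes with under 4 exons, 24.2% passed the 2-fold rule in either direction with TTC22V1 and 19.3% after knockdown, compared with 4.43% and 3.33% of genes with 4 or more. Among respiratory genes, 3 of 15 with under 4 exons passed with TTC22V1 and 2 of 15 after knockdown, while 3 of 63 with 4 or more passed in each comparison. These 15 genes are described after the others.

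COX7A2L was lower in both comparisons. The gene (ENSG00000115944, chr2:42333546-42425088 on the minus strand of hg38, up to 5 exons) encodes a relative of the complex IV subunit COX7A2 that joins complexes III and IV into a supercomplex. It was at 5.08 FPKM with TTC22V1 and 18.6 FPKM with vector, a log2 fold of −1.69. It was at 7.90 FPKM in knockdown cells and 24.3 FPKM in scramble cells, a log2 fold of −1.51. Both treated libraries therefore lay below both control libraries, although TTC22 itself stood above its control in 1 of them and below it in the other. Among the measured genes with 4 or more exons COX7A2L ranked 54th lowest of 9257 with TTC22V1 and 39th lowest of 8860 after knockdown. Its relatives did not share the pattern. COX7A2, the widely expressed subunit, was at 40.2 FPKM with TTC22V1 and 43.3 FPKM with vector, and at 45.6 FPKM in knockdown cells and 34.9 FPKM in scramble cells. COX7A1, the muscle and heart form, stayed at 0.0476 FPKM or less in every library. No other annotated gene overlaps the COX7A2L locus in GENCODE 44.

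Promoters were examined for motifs of factors known to bind respiratory genes, and for the TATA box. RefSeq promoters (GRCh38.p14, 250 bases before to 50 after the start) were found for 70 of the 90 genes. The letters GCGCATGC, the core of the nuclear respiratory factor 1 site, were sought on both strands. They stood in 13 of the 70 (18.6%), in 5.82% of 8161 promoters of measured genes and in 3.27% of all 27305 promoters. AAGATGG, the core of the YY1 site, stood in 16 of the 70 (22.9%), against 8.28% and 6.06%. CCGGAAG, an ETS core bound by GABP, stood in 19 (27.1%), against 20.9% and 10.7%. GGGCGG, an SP1 core, stood in 42 (60%), against 73.9% and 44.6%. TATAAA, the TATA box, stood in 7 (10%), against 4.78% and 12.0%. By complex, the first motif was in 5 of 31 promoters of complex I, 2 of 3 of complex II, 0 of 7 of complex III, 2 of 14 of complex IV and 4 of 11 of complex V.

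Printed is the promoter of COX7A2L, the gene that was lower in both comparisons. Its window holds none of the first 3 motifs, though it holds GGGCGG. Beside it are the promoters of SDHD, COX5B and UQCRC1, picked because they hold 1 or 2 of the first 3 and their genes stayed within the rule. The windows of COX5A, NDUFV1, NDUFV2 and SDHA, whose genes also stayed within the rule, hold none of the 3 either. Among the other genes past the rule, the window of COX8A, past it with TTC22V1, holds the ETS core. Those of NDUFB10, NDUFA11, UQCR10, UQCRFS1, NDUFB6 and NDUFC2-KCTD14, each past the rule in a comparison, hold none of the 3. Capitals mark matches to the 3 motifs on either strand, and each sequence runs 5′ to 3′ on the strand of its gene. The windows are chr2:42361168-42361467 (minus strand) for COX7A2L, chr11:112086623-112086922 (plus) for SDHD, chr2:97645812-97646111 (plus) for COX5B and chr3:48609597-48609896 (minus) for UQCRC1. For each gene 1 RefSeq start was used. That of COX7A2L lies inside its GENCODE gene body (chr2:42333546-42425088), so any start further upstream was not searched.
COX7A2L: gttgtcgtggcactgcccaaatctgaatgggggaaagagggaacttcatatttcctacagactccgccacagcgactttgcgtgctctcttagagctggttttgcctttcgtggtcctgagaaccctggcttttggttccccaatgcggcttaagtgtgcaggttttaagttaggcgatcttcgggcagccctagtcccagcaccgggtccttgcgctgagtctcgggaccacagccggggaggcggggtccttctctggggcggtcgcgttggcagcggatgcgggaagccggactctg
SDHD: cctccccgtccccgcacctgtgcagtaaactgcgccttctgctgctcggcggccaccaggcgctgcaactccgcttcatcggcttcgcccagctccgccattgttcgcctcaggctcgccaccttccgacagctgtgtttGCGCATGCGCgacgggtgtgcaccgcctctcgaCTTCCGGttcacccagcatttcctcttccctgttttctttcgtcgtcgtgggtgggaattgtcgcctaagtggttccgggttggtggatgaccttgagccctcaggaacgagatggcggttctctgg
COX5B: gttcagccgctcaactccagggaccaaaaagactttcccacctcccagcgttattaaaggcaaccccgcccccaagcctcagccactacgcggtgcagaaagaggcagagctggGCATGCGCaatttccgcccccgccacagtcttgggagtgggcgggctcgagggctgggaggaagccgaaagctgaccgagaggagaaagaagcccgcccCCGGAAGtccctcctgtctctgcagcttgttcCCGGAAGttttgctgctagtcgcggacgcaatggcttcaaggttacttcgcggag
UQCRC1: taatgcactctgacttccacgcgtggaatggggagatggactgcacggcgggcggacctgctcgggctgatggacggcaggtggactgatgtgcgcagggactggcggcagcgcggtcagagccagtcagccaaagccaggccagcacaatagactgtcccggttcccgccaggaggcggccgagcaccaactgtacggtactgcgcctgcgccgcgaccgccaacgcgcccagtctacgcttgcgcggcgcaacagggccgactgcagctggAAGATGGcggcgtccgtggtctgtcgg
A match describes letters only, and the lack of the first 3 motifs in the COX7A2L window says no more than that their letters are not there.

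In complex I the genes furthest below with TTC22V1 were 2 accessory subunits of the membrane arm. NDUFB10 (chr16:1959538-1961975) was at 39.3 FPKM with TTC22V1 and 91.0 FPKM with vector, a log2 fold of −1.19. NDUFA11 (chr19:5891276-5904006) was at 10.5 FPKM with TTC22V1 and 23.9 FPKM with vector, a log2 fold of −1.12. An unnamed gene, listed as AC024592.12, overlaps NDUFA11 on the same strand and was at 1.84 and 4.004 FPKM in those libraries. Relative to the median of all genes both folds fall inside the rule, at −0.98 and −0.91. In the siRNA experiment NDUFB10 stood at 31.6 FPKM in knockdown cells and 20.3 FPKM in scramble cells, and NDUFA11 at 6.81 FPKM in knockdown cells and 4.78 FPKM in scramble cells. For both genes the vector library was the highest of the 4. Next in order, named after their values were seen, were NDUFB9 at 40.6 FPKM with TTC22V1 and 81.4 FPKM with vector (log2 fold −0.99) and NDUFS6 at 13.9 FPKM with TTC22V1 and 26.5 FPKM with vector (−0.88). At the other end of the complex were the accessory subunits NDUFA12, at 13.4 FPKM with TTC22V1 and 10.5 FPKM with vector (0.33), and NDUFA5, at 4.16 FPKM with TTC22V1 and 3.32 FPKM with vector (0.26).

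After knockdown the complex I gene furthest above was NDUFB6 (chr9:32553001-32573184), another accessory subunit of the membrane arm. It was at 14.3 FPKM in knockdown cells and 4.98 FPKM in scramble cells, a log2 fold of 1.35, and at 7.46 FPKM with TTC22V1 and 10.4 FPKM with vector. The scramble library was the lowest of the 4 and the knockdown library the highest. The locus also holds the processed pseudogene DFFBP1 on the same strand, for which no value was used here. SMIM27 overlaps it on the opposite strand and was at 0.788 FPKM or less in all 4 libraries. NDUFA3 came close to the rule, at 4.05 FPKM in knockdown cells and 1.58 FPKM in scramble cells (log2 fold 0.97). Lowest in the complex was NDUFV3, at 1.71 FPKM in knockdown cells and 2.86 FPKM in scramble cells (−0.51). It was followed by NDUFS7, which carries the last iron-sulfur cluster before ubiquinone, at 4.11 FPKM in knockdown cells and 5.73 FPKM in scramble cells (−0.40).

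The core subunits of complex I described here, which belong to its matrix arm, stayed within the rule. NDUFV1, the flavin-binding subunit, was at 27.1 FPKM with TTC22V1 and 40.0 FPKM with vector, and at 17.9 FPKM in knockdown cells and 14.8 FPKM in scramble cells. Its partner NDUFV2 was at 34.7 and 35.0 FPKM in the TTC22V1 and vector libraries and at 24.4 and 24.8 FPKM in the knockdown and scramble libraries. NDUFS1, the largest subunit, was at 7.04 and 7.81 FPKM in the TTC22V1 and vector libraries and at 5.72 and 6.15 FPKM in the knockdown and scramble libraries. For NDUFV1 the vector library stood highest, as it did for NDUFS3 and NDUFS8, given next, and for most respiratory genes. The treated and control values of NDUFV2 and NDUFS1 lie close together. NDUFS3 was at 15.3 and 20.0 FPKM in the TTC22V1 and vector libraries and at 10.5 and 10.3 FPKM in the knockdown and scramble libraries. NDUFS8 was at 12.7 and 18.8 FPKM with TTC22V1 and vector and at 10.1 and 11.0 FPKM with knockdown and scramble. Over these genes and NDUFS7 the log2 folds lay between −0.55 and −0.01 with TTC22V1, and between −0.40 and 0.25 after knockdown.

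Complex II, which also serves the citric acid cycle, had no gene past the rule. SDHA, the flavoprotein, was at 16.1 FPKM with TTC22V1 and 19.5 FPKM with vector, and at 14.5 FPKM in knockdown cells and 15.2 FPKM in scramble cells. SDHB, the iron-sulfur subunit, was at 45.1 and 55.2 FPKM in the TTC22V1 and vector libraries and at 35.3 and 32.7 FPKM in the knockdown and scramble libraries. The membrane anchors differed a little in direction: SDHC was at 7.94 FPKM with TTC22V1 and 7.26 FPKM with vector (log2 fold 0.11), and at 3.92 FPKM in knockdown cells and 4.93 FPKM in scramble cells (−0.27). SDHD was at 32.8 FPKM with TTC22V1 and 36.3 FPKM with vector (−0.14), and at 35.1 FPKM in knockdown cells and 28.1 FPKM in scramble cells (0.31).

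In complex III the genes with 4 or more exons also stayed within the rule. UQCRC1, a core protein of the matrix side, was at 99.3 FPKM with TTC22V1 and 126 FPKM with vector, and at 59.6 FPKM in knockdown cells and 65.5 FPKM in scramble cells. Its partner UQCRC2 varied less, at 43.6 and 42.4 FPKM in the TTC22V1 and vector libraries and at 48.9 and 42.3 FPKM in the knockdown and scramble libraries. UQCRB, which contacts the ubiquinone site, had the highest log2 fold of these genes with TTC22V1, at 22.6 FPKM against 17.4 FPKM with vector (0.36), and was at 19.8 FPKM in knockdown cells and 18.2 FPKM in scramble cells. UQCR11 was lowest with TTC22V1, at 24.96 FPKM against 34.2 FPKM with vector (−0.44). UQCRH, the hinge protein that bridges to cytochrome c1, was lowest after knockdown, at 106 FPKM in knockdown cells against 130 FPKM with scramble (−0.29).

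In complex IV the ubiquitous subunits were abundant and their tissue-specific paralogs were almost absent. COX4I1, which carries the site of ATP inhibition, was at 60.0 FPKM with TTC22V1 and 76.0 FPKM with vector, and at 45.3 FPKM in knockdown cells and 51.2 FPKM in scramble cells. Its hypoxia and lung paralog COX4I2 was at 0.00382 FPKM in vector and listed at 0 in the other libraries. COX5A was at 88.2 and 103 FPKM in the TTC22V1 and vector libraries and at 77.5 and 73.7 FPKM in the knockdown and scramble libraries. COX5B was at 74.6 FPKM with TTC22V1 and 65.6 FPKM with vector (log2 fold 0.18), the highest of the complex among genes with 4 or more exons, and at 40.2 FPKM in knockdown cells and 52.4 FPKM in scramble cells (−0.37), the lowest after COX7A2L. COX6B1 was at 115 and 148 FPKM in the TTC22V1 and vector libraries and at 101 and 88.6 FPKM in the knockdown and scramble libraries, while its testis paralog COX6B2 was at 0.417 FPKM or less. COX7B was at 30.8 and 31.98 FPKM in the TTC22V1 and vector libraries and at 26.2 and 21.7 FPKM in the knockdown and scramble libraries, and its paralog COX7B2 was listed at 0 in all 4 libraries. NDUFA4 was at 23.2 and 28.9 FPKM in the TTC22V1 and vector libraries and at 21.7 and 19.2 FPKM in the knockdown and scramble libraries, and NDUFA4L2, its hypoxia-induced paralog, was at 0.403 FPKM or less. COX6A1 was at 154 and 196 FPKM in the TTC22V1 and vector libraries and at 109 and 101 FPKM in the knockdown and scramble libraries. COX6A2, its muscle form, was listed at 0 throughout and COX8C, the testis form of COX8A, was at 0.203 FPKM or less.

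Complex V had no gene past the rule in either comparison. The catalytic subunit beta, ATP5B (now ATP5F1B), was the most abundant respiratory transcript per length in 3 of the 4 libraries, at 260 FPKM with TTC22V1, 298 FPKM with vector and 152 FPKM with scramble. After knockdown ATP5B was at 157 FPKM, below COX8A. Subunit alpha, ATP5A1 (now ATP5F1A), which alternates with beta in the catalytic head, was less abundant, at 46.9 and 56.2 FPKM with TTC22V1 and vector and at 33.4 and 33.8 FPKM with knockdown and scramble. The rotor shaft subunit gamma, ATP5C1 (now ATP5F1C), was at 90.9 and 83.9 FPKM in the TTC22V1 and vector libraries and at 64.6 and 59.1 FPKM in the knockdown and scramble libraries. Transcripts of the head thus differed in level although their proteins are present in fixed ratios. The delta subunit ATP5D was the lowest of the complex with TTC22V1, at 26.5 FPKM against 42.1 FPKM with vector (log2 fold −0.65), and the highest after knockdown, at 24.4 FPKM against 18.9 FPKM with scramble (0.35). ATP5J, a stalk subunit, was at 19.9 FPKM in knockdown cells and 16.1 FPKM in scramble cells (0.29). ATP5H, another stalk subunit, was at 46.0 FPKM with TTC22V1 and 43.8 FPKM with vector (0.07), and at 28.1 FPKM in knockdown cells and 32.4 FPKM in scramble cells (−0.20). ATP5J2 was at 12.7 FPKM in knockdown cells and 14.4 FPKM in scramble cells (−0.17).

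Subunit c, which forms the rotating ring, is made from 3 genes that encode the same mature protein with different import sequences. ATP5G1 was at 18.1 FPKM with TTC22V1 and 26.4 FPKM with vector, and at 9.88 FPKM in knockdown cells and 10.1 FPKM in scramble cells. ATP5G2 was at 32.8 and 39.3 FPKM in the TTC22V1 and vector libraries and at 38.6 and 40.5 FPKM in the knockdown and scramble libraries. ATP5G3 was at 26.0 and 36.0 FPKM in the TTC22V1 and vector libraries and at 16.2 and 16.5 FPKM in the knockdown and scramble libraries. ATP5G1 and ATP5G3 had smaller values in both siRNA libraries than in both plasmid libraries, while the ATP5G2 values of the experiments overlapped.

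Among the 15 measured genes with under 4 exons, 10 had log2 folds within the 2-fold rule in both comparisons. These were NDUFA1, NDUFA2, NDUFA6, NDUFB4, NDUFB7, NDUFB11, NDUFS5, UQCRQ, COX6A1 and ATP5E. Their log2 folds ran from −0.48 to −0.12 with TTC22V1 and from −0.34 to 0.29 after knockdown. NDUFS5, the most abundant transcript of complex I per length, was at 207 FPKM with TTC22V1 and 243 FPKM with vector, and at 148 FPKM in knockdown cells and 139 FPKM in scramble cells.

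The other 5 had 1 library apart from the rest, or a copy or overlapping gene that can take their reads. COX8A, a small subunit of complex IV with 2 exons (chr11:63974620-63976543), was at 149 FPKM with TTC22V1 and 2.26 FPKM with vector, and at 189 FPKM in knockdown cells and 97.3 FPKM in scramble cells. Its log2 fold of 5.52 with TTC22V1 rests on the low vector library, since the other 3 libraries were at 97.3 FPKM or more. After knockdown the log2 fold was 0.95, inside the rule. A gene listed as AP000721.4 overlaps COX8A and was at 1.46 FPKM with TTC22V1 and 3.15 FPKM with vector. UQCR10, a small subunit of complex III with 2 exons (chr22:29767369-29770413), was at 3.67 FPKM with TTC22V1 and 31.6 FPKM with vector, and at 39.4 FPKM in knockdown cells and 38.4 FPKM in scramble cells. Here the TTC22V1 library alone was low (log2 fold −2.80). UQCRFS1, the Rieske iron-sulfur protein of complex III with 2 exons (chr19:29205320-29213151), was at 33.6 FPKM with TTC22V1 and 15.0 FPKM with vector (log2 fold 1.11), and at 28.9 FPKM in knockdown cells and 26.4 FPKM in scramble cells. Again the vector library stood apart from the other 3. Whether such single low values come from the cells or from the quantification was not tested.

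NDUFC2, an accessory subunit of the complex I membrane arm with 3 exons (chr11:78068297-78079862), was at 15.2 FPKM in knockdown cells and 6.10 FPKM in scramble cells, a log2 fold of 1.19. With TTC22V1 it was at 29.0 FPKM and with vector at 31.98 FPKM. The readthrough name NDUFC2-KCTD14, which overlaps it, was at 2.62 FPKM in knockdown cells and 0.124 FPKM in scramble cells, and at 0.118 FPKM with TTC22V1 and 0.470 FPKM with vector. Both were higher after knockdown, and reads of the shared exons cannot be assigned to either with certainty. The downstream partner KCTD14 was at 0.00280 FPKM in knockdown cells and 0.000111 FPKM in scramble cells, and at 11.2 FPKM with TTC22V1 and 1.45 FPKM with vector. The other readthrough name, ATP5J2-PTCD1, was at 1.99 FPKM with TTC22V1 and 0.802 FPKM with vector (log2 fold 0.73).

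UQCRHL, a single-exon copy of UQCRH, was at 3.43 FPKM in knockdown cells and listed at 0 in scramble cells, and at 2.67 FPKM with TTC22V1 and 3.26 FPKM with vector. The coding sequence of the copy and the matching stretch of the UQCRH transcript, both from GENCODE 44 on hg38 (chromosome 1), are given to show how little separates them. Of 276 bases 4 differ, an identity of 98.6%, and capitals mark those bases.
UQCRH: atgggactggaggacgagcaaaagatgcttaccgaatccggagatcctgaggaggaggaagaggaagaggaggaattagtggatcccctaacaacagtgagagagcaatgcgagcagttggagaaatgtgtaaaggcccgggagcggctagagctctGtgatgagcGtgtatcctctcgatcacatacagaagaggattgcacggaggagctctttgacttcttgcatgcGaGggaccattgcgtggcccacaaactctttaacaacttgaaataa
UQCRHL: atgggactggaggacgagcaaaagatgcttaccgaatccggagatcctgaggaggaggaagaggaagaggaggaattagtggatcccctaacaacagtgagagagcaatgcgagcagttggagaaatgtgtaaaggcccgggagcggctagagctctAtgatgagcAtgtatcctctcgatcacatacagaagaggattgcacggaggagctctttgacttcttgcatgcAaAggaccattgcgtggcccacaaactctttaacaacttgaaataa
A read that spans none of the capitals fits both genes, so the 0 of UQCRHL in scramble is uncertain, as is the value of 130 FPKM for UQCRH in the same library.

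**Figure D2:**
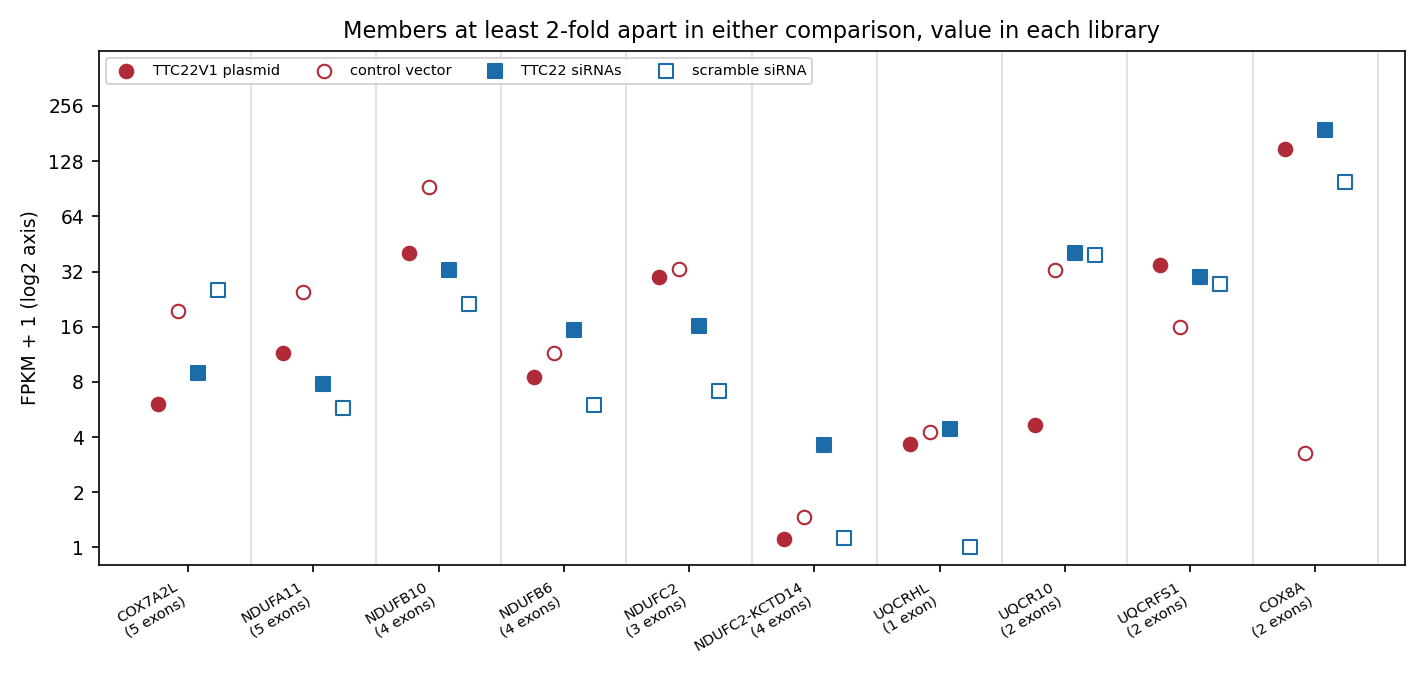
FPKM + 1 on a log2 axis in each of the 4 libraries for the 10 respiratory genes past the 2-fold rule in at least 1 comparison, with exon numbers under the names. Filled markers are treated libraries and open markers their controls, 1 library each; for COX7A2L both filled markers lie below both open ones, while COX8A and UQCR10 each have 1 library far from the other 3.

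The 2 comparisons share no library. Over the 62 genes with 4 or more exons that were measured in both, Pearson's r between their log2 folds was 0.06 and Spearman's rho −0.15. Without COX7A2L, left out after its low folds in both comparisons had been seen, r was −0.29 and rho −0.21 over 61 genes. Leaving out such a gene by itself moves the coefficients downward. Over all 8496 genes with 4 or more exons measured in both, with none left out, r was 0.02 and rho 0.10. Relative to the medians of all genes, 18 of the 62 lay above in both comparisons and 15 below in both, 19 lay below with TTC22V1 and above after knockdown, and 10 the other way round. NDUFB10, NDUFA11, NDUFA3 and ATP5D were among the 19. The same counts were not made over all genes, so the split is not read as a result about the respiratory genes. These coefficients describe genes of the same libraries and carry no p-value.

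**Figure D3:**
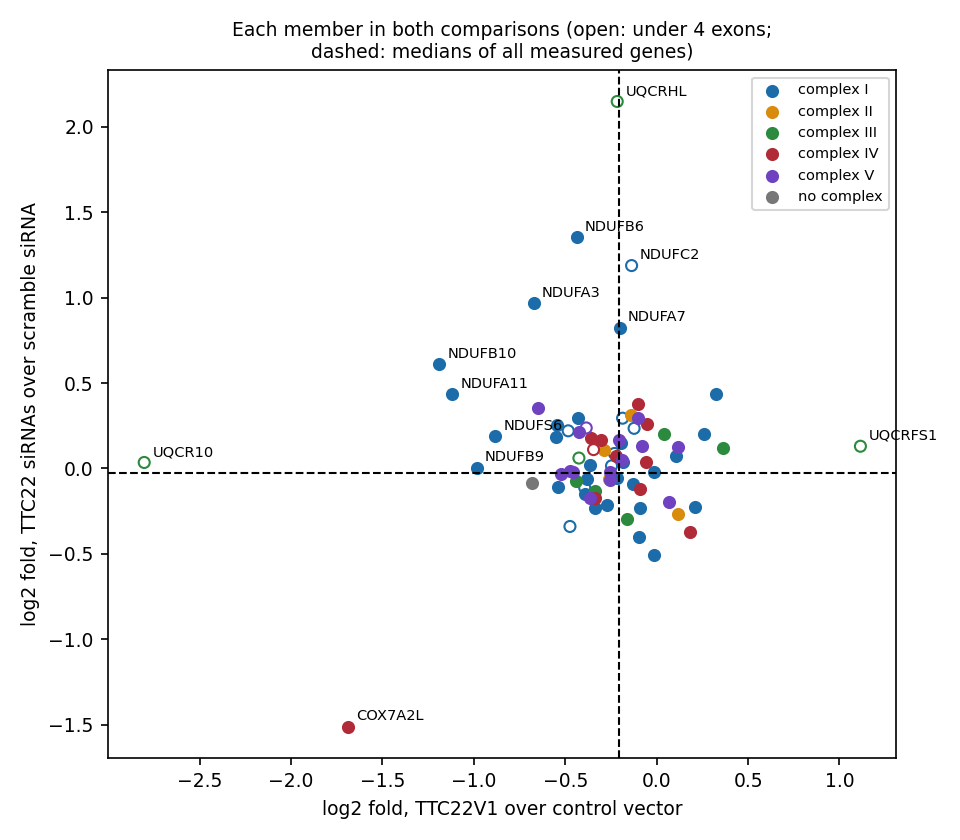
Log2 fold after knockdown (vertical axis) against log2 fold with TTC22V1 (horizontal axis) for each respiratory gene measured in both comparisons, coloured by complex, without COX8A, whose horizontal value is 5.52. Dashed lines mark the medians of all measured genes (−0.21 and −0.02). COX7A2L lies alone at the lower left and NDUFB10, NDUFA11 and NDUFA3 at the upper left, with UQCR10 furthest left at −2.80.

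The median of the whole group lay further from 0, and from the median of all genes, between the experiments than within them. The comparison of the treated libraries was added after the values had been seen, and transfection with siRNA or plasmid cannot be told apart from the experiment. Of 77 genes measured in the control libraries, 1 was higher with scramble than with vector, against 4.99% of all 10214 measured genes, and 18 were lower, which is 23.4% against 14.1% of all. The group median was −0.72, while that of all genes was −0.25, and 66 of the 77 lay below the median of all genes. Between the treated libraries, siRNA over TTC22V1, 2 of 79 genes were higher and 3 lower, against 7.79% and 9.74% of all genes. There the group median was −0.38 against −0.08 for all genes, with 62 of 79 below it. Among the 77 genes measured in both of these pairs, which share no library, 57 lay below the median of all genes both times, or 74.0%, against 39.5% of all 9718 genes. Complex V did so with 13 of 15 genes and complex I with 29 of 36, but complex III with 3 of 9.

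The drop between experiments was uneven among complexes. For scramble over vector the medians were −0.82 for complex I, −0.42 for complex II, 0.00 for complex III, −0.51 for complex IV and −0.77 for complex V. For knockdown over TTC22V1 they were −0.45, −0.24, −0.18, −0.19 and −0.49. The 36 complex I genes summed to 748 FPKM in knockdown cells and 700 FPKM in scramble cells, and to 1017 FPKM with TTC22V1 and 1320 FPKM with vector. Complex III sums were closer together, at 352 and 367 FPKM in the knockdown and scramble libraries and at 357 and 424 FPKM in the TTC22V1 and vector libraries. Of 77 genes whose mean of the 4 libraries reached 1 FPKM, 57 were highest in vector (74.0%, against 49.2% of all genes) and 40 lowest in scramble (51.9%, against 23.2%). UQCRH ran against the tilt, at 106 and 130 FPKM in the knockdown and scramble libraries and 72.2 and 80.8 FPKM in the TTC22V1 and vector libraries. So did NDUFS4 between the controls, at 46.7 FPKM with scramble and 38.02 FPKM with vector. Of the 6 markers of other cells, the summed level was 40.8 and 46.0 FPKM in the knockdown and scramble libraries and 10.9 and 12.5 FPKM in the TTC22V1 and vector libraries. Most of this was CD68, a lysosomal protein of macrophages, at 37.2 and 42.6 FPKM in the knockdown and scramble libraries and 5.76 and 6.34 FPKM in the TTC22V1 and vector libraries. VIM, the mesenchymal filament vimentin, went the other way, at 0.905 and 0.913 FPKM in the knockdown and scramble libraries and 2.86 and 2.63 FPKM in the TTC22V1 and vector libraries. The collagen gene COL1A1 lay between 1.82 and 2.99 FPKM and COL1A2 between 0.400 and 0.532 FPKM over the 4 libraries. The leukocyte marker PTPRC was at 0.00276 FPKM or less and the endothelial marker PECAM1 at 0.0271 FPKM or less. The part of these markers in the difference was not tested.

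**Figure D4:**
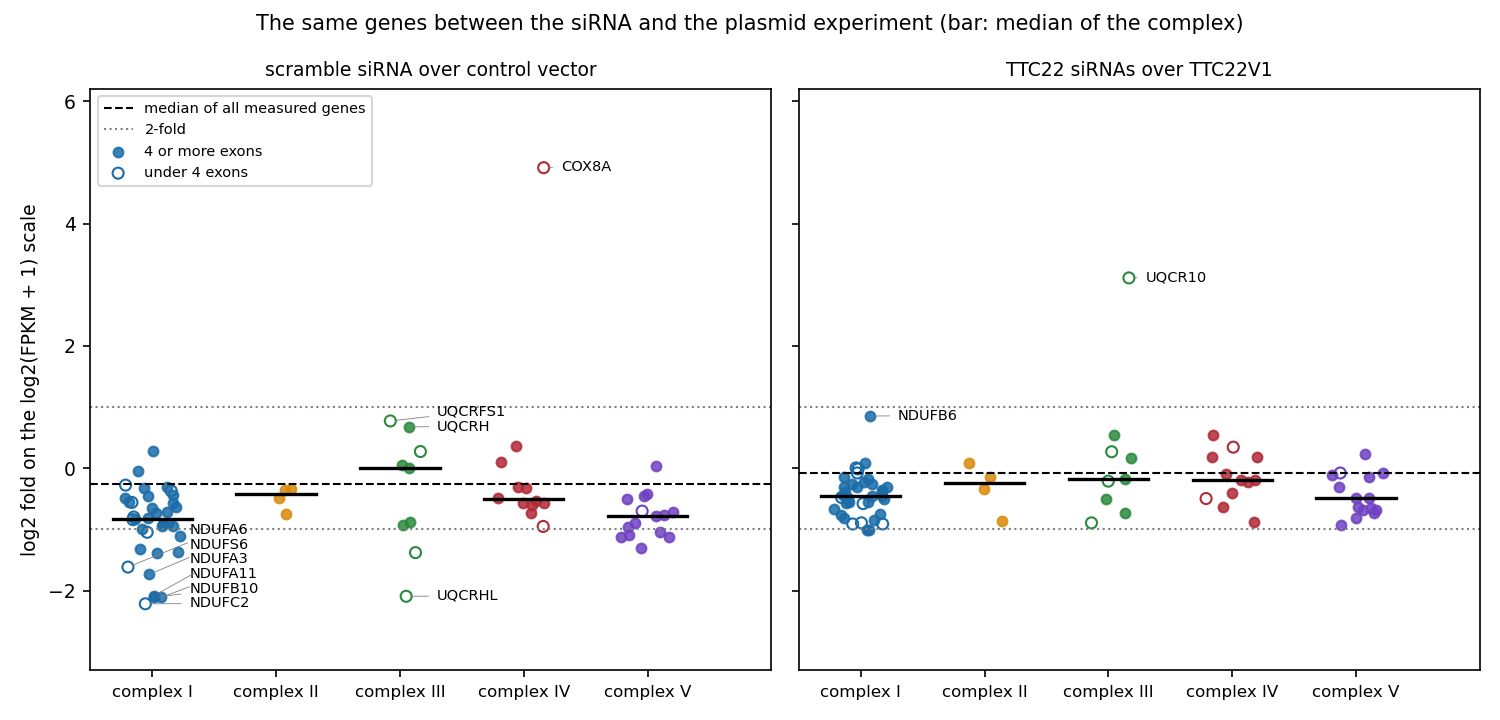
Log2 fold of each respiratory gene between the experiments, scramble siRNA over control vector (left panel) and TTC22 siRNAs over TTC22V1 (right panel), by complex, 1 library per group. Bars are complex medians, open points have under 4 exons and the dashed line is the median of all measured genes; complexes I and V sit below that line in both panels.

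Subunits and carriers outside the naming pattern were each highest in the vector library. Cytochrome c1, CYC1, was at 112 FPKM with TTC22V1 and 159 FPKM with vector, and at 69.2 FPKM in knockdown cells and 61.7 FPKM in scramble cells. Cytochrome c, CYCS, was at 43.4 and 47.5 FPKM in the TTC22V1 and vector libraries and at 32.2 and 23.3 FPKM in the knockdown and scramble libraries. NDUFAB1, the acyl carrier protein of complex I, was at 38.8 and 68.0 FPKM in the TTC22V1 and vector libraries and at 23.0 and 21.5 FPKM in the knockdown and scramble libraries.

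Assembly factors insert cofactors and join subunits. Of 47 measured with the plasmid 2 were higher and 3 lower, where 2.08% and 4.1% of all genes were. Of 48 measured with siRNA 3 were higher and 1 lower, where 2.57% and 2.19% of all genes were. The list medians were −0.18 and 0.06. NDUFAF2, a chaperone of late complex I assembly with up to 6 exons, was at 18.0 FPKM with TTC22V1 and 5.91 FPKM with vector, and at 14.4 FPKM in knockdown cells and 19.1 FPKM in scramble cells. COA4 was higher in both comparisons, at 16.6 FPKM with TTC22V1 against 2.94 FPKM with vector and at 10.3 FPKM in knockdown cells against 1.45 FPKM with scramble, and has up to 3 exons. SDHAF1, with 1 exon, was listed at 0 with TTC22V1 and at 15.8 FPKM with vector, and was at 9.30 FPKM in knockdown cells and listed at 0 in scramble cells. COX14 (1.75 FPKM against 16.4 FPKM with vector) and COA7 (1.98 FPKM against 7.32 FPKM with vector) were lower with TTC22V1, and both have up to 3 exons. After knockdown TMEM186 (3.64 FPKM against 0.659 FPKM with scramble) was higher and TMEM70, a factor of complex V, lower (2.11 FPKM against 6.26 FPKM with scramble). Of the factors past the rule only NDUFAF2 and TMEM70 have 4 or more exons.

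None of the regulators of respiratory genes passed the rule, among 11 measured with the plasmid and 10 with siRNA. Of all measured genes 6.18% and 4.75% passed it in either direction, so 0 in so short a list is near the background. NRF1, which encodes nuclear respiratory factor 1, was at 4.44 FPKM with TTC22V1 and 5.11 FPKM with vector, and at 4.49 FPKM in knockdown cells and 3.98 FPKM in scramble cells. TFAM, which packages mitochondrial DNA, was at 2.79 and 5.46 FPKM in the TTC22V1 and vector libraries and at 2.23 and 3.50 FPKM in the knockdown and scramble libraries. The coactivator gene PPARGC1A was at 0.000899 FPKM with TTC22V1 and listed at 0 in the other 3 libraries. Mitochondrially encoded subunits could not be read beside the nuclear ones: 7 of the 13 genes were listed at 0 in all 4 libraries, and MT-CO1 was at 4429 FPKM in knockdown cells and listed at 0 in scramble cells.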

How the data were processed

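Per the labels' protocols, libraries were paired-end and made from RNA with poly-A tails. The submitters' processing notes name STAR, without a version, and hg38. No quantifier, annotation, strand setting or filter was given in the sources read. Both deposited tables hold values taken to be FPKM as made by the authors. The headers name no unit, the values are not whole, and their sums differ between libraries.

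Log2 folds used a pseudocount of 1 FPKM and a minimum mean of 1 FPKM over the pair. With 1 library per group the 2-fold size replaced a test. Always named were core subunits (not every gene of the set is reported here), isoform pairs, genes past the rule, genes with under 4 exons, and the 2 highest and 2 lowest genes of each complex with 4 or more exons. Members, lists and rules were chosen with earlier results of these data known. Exon numbers (transcript with most exons) and coordinates came from GENCODE 44, which held all 90 genes. No member name repeated. Scripts (Python 3.11.15, pandas 2.3.3, numpy 2.4.6, scipy 1.17.1) were tested on simulated data. Alternatives were a pseudocount of 0.1, other scalings, filters and sizes, means, and restricted gene sets. The depth is unknown, so no counting interval was given. FPKM is scaled to the library total, so 1 abundant transcript lowers all other values.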

Additional observations from a re-analysis of the deposited data

How the results depend on the processing

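No paired analysis was possible because each group is 1 library and the labels carry no replicate numbers; for the same reason no replicate could be left out. With TTC22V1 the median log2 fold of the members was −0.25 as deposited, and −0.045 both after centring on all measured genes and after rescaling without TTC22. After knockdown it was 0.07 as deposited and −0.12 after rescaling, so its sign depends on the scale. In rescaling, each library was brought to a larger total while the pseudocount and the filter stayed at 1, so both weighed less. Rescaling moved the median of all genes to −0.04 for the plasmid and −0.20 for the siRNA comparison, and relative to it the members stood at −0.01 and 0.09. The count of lower members with TTC22V1 was 4, and 2 after centring, 9 at 1.5-fold and 1 at 4-fold, while the count of higher members was 2, and 0 among genes with 4 or more exons and 1 at 4-fold. After knockdown 4 were higher, and 3 without names that encode no subunit. With a mean of at least 5 FPKM 2 were higher, and 2 among genes with 4 or more exons. At 1.5-fold 8 were higher and at 4-fold 1. The count of lower members after knockdown was 1, and 0 at 4-fold. NDUFB10 (−0.98 centred, −0.98 rescaled) and NDUFA11 (−0.91 centred, −0.95 rescaled) left the rule. The complex III median after knockdown, 0.06, became −0.07 over genes with 4 or more exons. COX7A2L stayed past it under the 3 alternatives that can change the fold of a single gene (pseudocount, centring, rescaling), between −1.85 and −1.48 with TTC22V1 and between −1.78 and −1.49 after knockdown. With 1 library per group the spread between cultures is unknown.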

Other observations

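The base composition of the transcripts varied with the plasmid fold. Over the 63 measured respiratory genes with 4 or more exons, the log2 fold with TTC22V1 and the GC percent of the canonical GENCODE 44 transcript gave Pearson's r −0.34 and Spearman's rho −0.47. Over all 9257 such genes r was −0.31 and rho −0.51. The 31 respiratory genes above the median GC of 47.0% had a median log2 fold of −0.36, and the 32 others −0.10. NDUFB10 and NDUFA11, lower with TTC22V1, have 59.0% and 62.3% GC, and ATP5D has 69.5%, while COX7A2L, lower too, has 38.6%. After knockdown the respiratory genes gave r 0.14 and rho 0.08, and all genes r −0.17 and rho −0.27. For scramble over vector the 62 respiratory genes gave r −0.48 and rho −0.44, and all genes r −0.17 and rho −0.19. The coefficients of each comparison describe genes that share 1 pair of libraries, and the part of base composition in the folds was not tested.

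Respiratory genes were also split by the nuclear respiratory factor 1 core in their promoter. With TTC22V1 the median log2 fold was −0.20 over 10 genes with the motif and 4 or more exons, and −0.26 over 40 without. After knockdown the medians were 0.12 and 0.03, and for scramble over vector −0.62 and −0.72. For knockdown over TTC22V1 the order was the opposite, at −0.56 with the motif and −0.38 without. The ETS and YY1 cores did not keep these orders. With the ETS core the medians were −0.31 (TTC22V1), 0.004 (knockdown), −0.74 (scramble over vector) and −0.36 (knockdown over TTC22V1). Without it they were −0.24, 0.05, −0.67 and −0.44. With the YY1 core they were −0.20, 0.13, −0.74 and −0.36, and without it −0.27, −0.02, −0.62 and −0.40. The part of the motifs in the folds was not tested.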
